A study of Mus musculus with 8 samples.

Results

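The TREM, SIRP and PILR families are paired receptors of myeloid cells, in which closely related surface proteins deliver opposite signals. The set described here holds 9 mouse genes: the receptors Trem1, Trem2, Trem3, Sirpa, Sirpb1, Pilra and Pilrb1 and the signalling adaptors Tyrobp and Hcst. They were taken from the deposited table by gene name, which gave 13 of its 25697 probes. The name Sirpb1 on the array is an older symbol of Sirpb1a, which is used below. The group was chosen from results of the siRNA comparison on these same arrays, above all the higher values of Trem3 and Sirpb1a after Ypel5 siRNA. Their differences between the groups are therefore a description, and the adjusted p-values give only their place in a fit over all genes.

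Expression was measured in RAW264.7, a macrophage line from Balb/c mice that was transformed with Abelson leukaemia virus and remains a single cultured line. Cells had received, 24 h before RNA was taken, either the scrambled siRNA SIC001 (4 arrays) or the Ypel5-specific siRNA SASI_Mm01_00066332 (4 arrays), both delivered with HiPerfect. Only 1 Ypel5 siRNA sequence was used, and no untransfected cells are among the arrays. The replicates are numbered but not described as separate cultures, so the p-values measure the spread between these arrays, which may be technical.

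Activating members of these families have short tails and carry a charged residue within the membrane that docks to an adaptor. Tyrobp encodes DAP12, whose tail holds an immunoreceptor tyrosine-based activation motif (ITAM) that recruits the kinase Syk, and Hcst encodes DAP10, which recruits phosphatidylinositol 3-kinase. Trem1, Trem2, Trem3, Sirpb1a and Pilrb1 are known to signal through DAP12. Sirpa and Pilra instead carry inhibitory motifs (ITIMs) that recruit the phosphatases SHP-1 and SHP-2, and Sirpa reads the surface protein CD47 as a signal not to engulf a cell. In macrophages and osteoclasts the TREM2 and DAP12 pair is known for lipid sensing, phagocytosis and cell fusion, while TREM1 amplifies Toll-like receptor responses.

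The SIRP and PILR genes have near copies beside them in the mouse genome, and this bears on what their probes can read. The stretches below come from RefSeq (GRCm38.p6), lie upstream of the annotated starts on the minus strand and are written 5′ to 3′. They are shown because they place each measured gene beside relatives that have no probe under their own name on the array, Sirpb1b, Sirpb1c and Pilrb2. In the lines of Sirpb1a and Pilra capitals mark a match to the repeat that interferon-stimulated response elements contain (GAAA, any 2 bases, GAAA). In the other lines capitals mark bases that differ from Sirpb1a or Pilra.
Sirpb1a, chr3:15426521-15426677: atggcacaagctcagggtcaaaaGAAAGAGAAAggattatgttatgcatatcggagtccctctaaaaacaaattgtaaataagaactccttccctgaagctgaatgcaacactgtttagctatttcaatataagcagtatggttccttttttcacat
Sirpb1b, chr3:15575066-15575222: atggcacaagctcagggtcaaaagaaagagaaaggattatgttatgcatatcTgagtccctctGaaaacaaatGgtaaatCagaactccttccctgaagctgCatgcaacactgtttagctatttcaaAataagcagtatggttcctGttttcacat
Sirpb1c, chr3:15848529-15848685: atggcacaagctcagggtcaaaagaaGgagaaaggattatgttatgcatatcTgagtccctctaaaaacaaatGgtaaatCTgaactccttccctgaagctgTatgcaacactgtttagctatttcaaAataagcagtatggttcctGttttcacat
Pilra, chr5:137836279-137836474: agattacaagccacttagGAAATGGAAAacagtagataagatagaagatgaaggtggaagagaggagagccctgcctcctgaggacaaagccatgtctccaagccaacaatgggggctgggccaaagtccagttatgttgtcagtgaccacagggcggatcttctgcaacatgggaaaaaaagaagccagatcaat
Pilrb1, chr5:137858104-137858299: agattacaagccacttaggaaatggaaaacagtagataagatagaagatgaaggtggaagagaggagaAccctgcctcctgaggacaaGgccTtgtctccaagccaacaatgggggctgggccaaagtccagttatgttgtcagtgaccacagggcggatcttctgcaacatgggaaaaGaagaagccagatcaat
Pilrb2, chr5:137871813-137872008: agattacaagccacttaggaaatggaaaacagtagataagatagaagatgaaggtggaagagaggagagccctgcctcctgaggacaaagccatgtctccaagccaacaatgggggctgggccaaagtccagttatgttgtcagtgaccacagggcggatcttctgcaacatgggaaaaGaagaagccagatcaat

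Over 157 aligned bases Sirpb1b matched Sirpb1a at 150 (95.5%) and Sirpb1c at 149 (94.9%). Over 196 bases Pilrb1 matched the inhibitory receptor gene Pilra at 192 (98.0%) and Pilrb2 at 195 (99.5%). These are flanking sequences and not the probe sequences, which were not used here, so which of the relatives each probe binds was not tested.

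Of the 9 genes, 6 had an upstream window of 250 bases in the RefSeq table (Trem1, Trem2, Hcst, Sirpb1a, Pilra and Pilrb1). The interferon-type repeat, searched on both strands, was present in 3 of the 6 windows (Sirpb1a, Pilra and Pilrb1), against 2.98% of 32851 windows of the same length. In Sirpb1a the match began 227 bases before the start (position -227). It was kept in Sirpb1b, while 1 of the differing bases of Sirpb1c interrupts it. The Pilra and Pilrb1 windows are near copies and count as little more than 1 sequence. The core GAGGAA of the myeloid factor PU.1 was found in 3 of 6 windows (23.3% of all), TGANTCA of AP-1 in 1 (6.75%), and TATAAA (12.4%) and an NF-kB pattern (GGGA, any 2 bases, TTCC; 1.21%) in 0. A match describes letters only and says nothing of binding.

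Between 11249 and 11612 probes were detected per array, meaning a detection p under 0.05 against the array's negative controls. Before normalization the Ypel5 siRNA arrays tended to be brighter, with a median intensity of 209.5 ± 14.6 against 189 ± 6.26 for scrambled arrays (SD, n = 4 per group). A two-sided exact permutation test of these medians gave p = 0.0857, and 0.0286 is the lowest p it can give. Detection p-values took 101 levels on both arrays of replicate 1 and 749 to 762 on the others. Ypel5 itself was detected on 0 of 8 arrays, with log2 intensities of 4.70 ± 0.095 and 4.79 ± 0.10 (SD, n = 4 each), so a knockdown of its mRNA could be neither seen nor dismissed, and the groups below rest on their labels. Of 11 macrophage markers on the array only Mertk was detected on 0 arrays. An adjusted p under 0.05 was reached by 4.95% of all genes tested and by 0 of the 9 tested markers. Their median was log2 0.04, the smallest p was that of Fcgr1 (log2 0.23, adjusted p = 0.0634), and the summed background-corrected level of all 11 was 101500 to 103800 in scrambled and 101900 to 108300 in Ypel5 siRNA arrays. Of 8 granulocyte markers 6 were detected on 0 arrays (S100a9, Mpo, Ngp, Ltf, Cxcr2 and Mmp8), and their summed background-corrected level was 225 to 271 in scrambled and 241 to 275 in Ypel5 siRNA arrays. Dendritic markers (7 of 8 detected on 0 arrays) summed to 96.9 to 121 and 103 to 150, lymphocyte markers (6 of 9) to 209 to 332 and 234 to 282, and stromal markers (6 of 7) to 88.3 to 127 and 91.7 to 109, so that all these ranges overlapped. Some of these markers did give signal. S100a8 was detected on 8 of 8 arrays (log2 7.30 scrambled, 7.42 Ypel5 siRNA), as was Lck (log2 7.07 and 7.22). Cdh1 was detected on 5 arrays and Camp on 4. Their limma adjusted p-values were 0.302 for S100a8, 0.574 for Lck, 0.923 for Cdh1 and 0.390 for Camp. The part of such cells in the differences below was not tested further.

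Among the activating receptors, Trem3 differed most between the groups, and Sirpb1a followed. With background correction both were roughly doubled on the Ypel5 siRNA arrays, and without it they were 1.70-fold (Trem3) and 1.28-fold (Sirpb1a) higher. The fitted differences of the other tested receptors and both adaptors were within 0.15 log2 units of the scrambled arrays, with a wide 95% interval for Trem1 (-0.46 to 0.43). Of the 7 genes that passed the detection filter, 2 were past an adjusted p of 0.05 in the fit over all genes, both higher, and 0 were lower. In that fit 2.96% of 8154 genes were called higher, 2.00% lower and 4.95% in either direction. Since these differences were known when the genes were chosen, nothing is read from the share. The median of the 7 was log2 0.06, against log2 0.0008 over all genes tested.

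**Figure D1:**
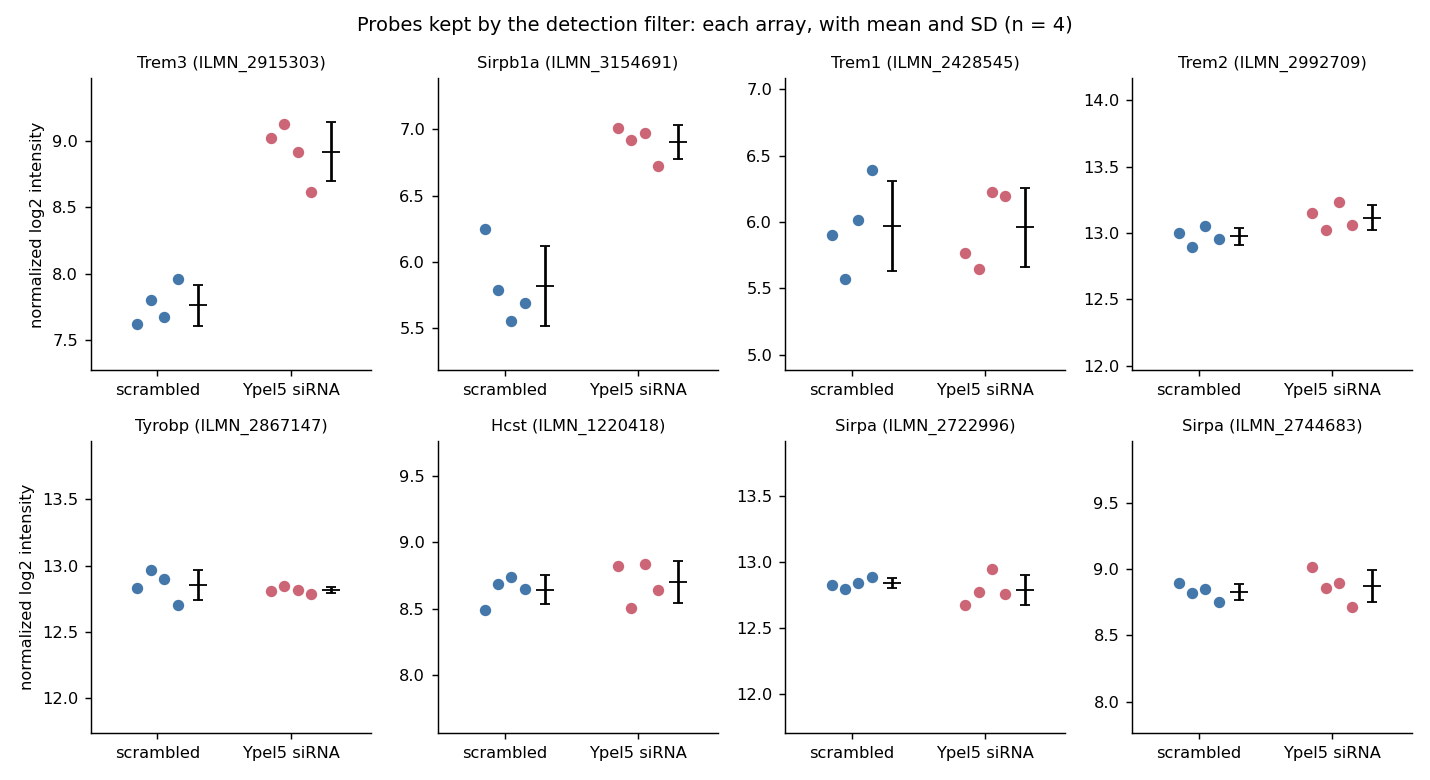
Normalized log2 intensity of the 8 probes kept by the detection filter on each scrambled (blue) and Ypel5 siRNA (red) array, with group mean and SD (n = 4), each panel spanning the same log2 range. Trem3 and Sirpb1a are the panels whose groups do not overlap.

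Trem3, a DAP12-coupled receptor of mouse macrophages, has 1 probe (ILMN_2915303), detected on all 8 arrays. Its deposited intensity was 339, 371, 323 and 398 on the scrambled arrays and 828, 741, 619 and 619.7 on the Ypel5 siRNA arrays, in replicate order. Every Ypel5 siRNA array was above every scrambled array, with 222 intensity units between the nearest arrays. After normalization the log2 level averaged 7.76 ± 0.15 with scrambled and 8.92 ± 0.22 with Ypel5 siRNA (SD, n = 4 per group). This was a 2.23-fold difference (log2 1.16, SE 0.12, 95% interval 0.88 to 1.43, limma adjusted p = 0.00295), the 5th largest rise of 8154 genes by fitted value. The nearest arrays of the groups were 0.65 log2 units apart. Trem3 and Sirpb1a were the 2 members whose normalized groups did not overlap, both higher. Over all genes tested, such groups were found for 15.2%, with 7.91% higher and 7.30% lower.

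The size for Trem3 depended on background correction and the direction did not. Without background correction the difference was log2 0.76, or 1.70-fold, and it was log2 1.23 when arrays were scaled to one median instead of quantile normalized. Over 21 alternatives it ranged from log2 0.76 to 1.26 and was past the threshold in all 21, with an adjusted p of at most 0.0354. That highest value came without both replicate 1 arrays, where the difference was log2 1.07. In a cell mixture a larger share of cells with the transcript and more transcript per cell give the same array value, and the bulk RNA cannot tell them apart.

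Sirpb1a, an activating SIRP with a short tail that couples to DAP12, has 3 probes, and they did not behave alike. Probe ILMN_3154691 was detected on all 8 arrays. It read 227, 213, 191 and 209.9 with scrambled and 344, 293, 280.4 and 300.3 with Ypel5 siRNA. The groups did not overlap, but the scrambled values lay close to the array medians of 181 to 194, so a small absolute gain of signal is spread over a low baseline. The normalized log2 level averaged 5.82 ± 0.30 with scrambled and 6.91 ± 0.13 with Ypel5 siRNA (SD, 4 arrays per group), a 2.12-fold difference (log2 1.08, SE 0.14, 95% interval 0.75 to 1.41, limma adjusted p = 0.00734). By fitted value it ranked 8th among rises.

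The scrambled spread of Sirpb1a came mainly from replicate 1, at log2 6.25 against 5.56 to 5.79 for the other scrambled arrays. Without that array the difference was log2 1.23 (adjusted p = 0.00245). Without background correction it was log2 0.36, or 1.28-fold, with an adjusted p of 0.000871, and the authors' deposited log2 values gave the same size. An offset of 50 gave log2 0.76, and the same offset together with correction without the inferred negative controls gave log2 0.61. Of 21 alternatives all 21 were past the threshold, with an adjusted p of at most 0.0339.

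The other Sirpb1a probes, ILMN_2603636 and ILMN_2714330, were detected on 0 of 8 arrays. The first read between 153 and 172 with scrambled and between 166 and 204 with Ypel5 siRNA. The second read 168 to 178 and 172 to 194. Their log2 differences were -0.02 each, no fold is given because both groups lay below background, and a transcript that these probes do not bind cannot be told apart from one that is not there. The rise under the name Sirpb1a therefore rests on 1 of 3 probes.

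**Figure D2:**
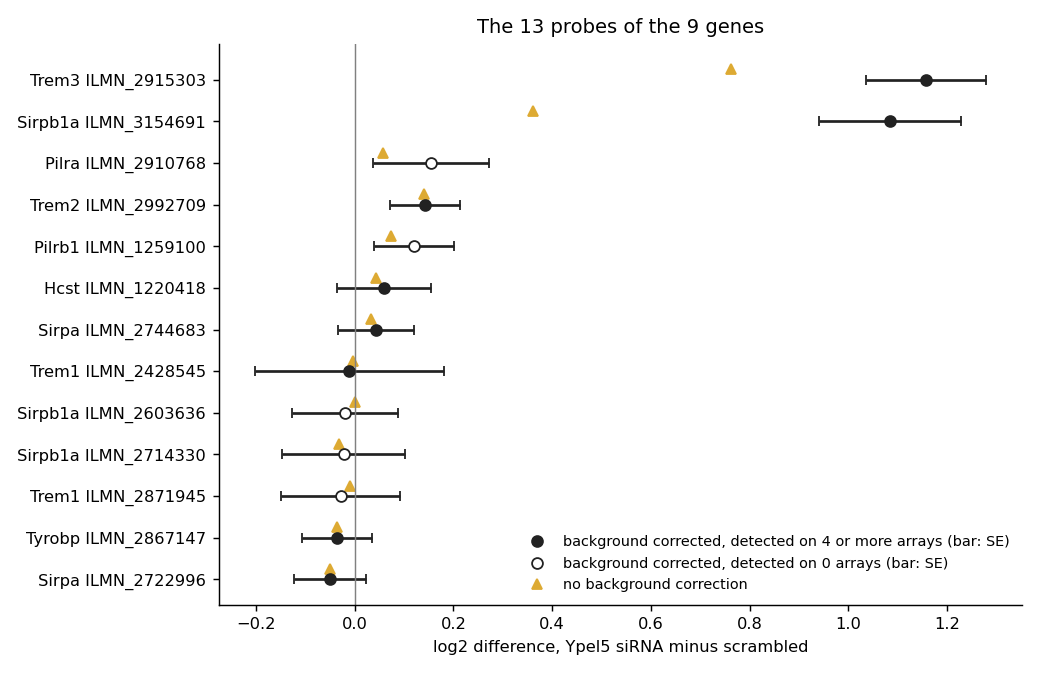
Log2 difference (Ypel5 siRNA minus scrambled) of all 13 probes with the SE of the fit over all probes, beside the value without background correction (triangles). Filled points were detected on at least 4 arrays and open points on 0, and only 1 of the 3 Sirpb1a probes lies away from 0.

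Trem1, the amplifier of inflammatory responses, lay near the detection limit. Its probe ILMN_2428545 was detected on 7 of 8 arrays. It read 211, 205, 205 and 241 with scrambled and 252, 218, 232 and 263 with Ypel5 siRNA. The groups overlapped. The normalized difference was log2 -0.01 (SE 0.19, limma adjusted p = 0.984), and its 95% interval ran from -0.46 to 0.43. In this fit, without a replicate block, a change of moderate size in either direction was therefore not detectable with this probe. With the replicate numbers as a block in the fit the SE was 0.085 (limma adjusted p = 0.960). A second Trem1 probe, ILMN_2871945, was detected on 0 arrays.

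Trem2, the lipid-sensing receptor, was bright on every array. Its probe read 8245, 7625, 7674 and 7629.9 with scrambled and 10921, 8669, 9041 and 9261 with Ypel5 siRNA. Before normalization the groups did not overlap. After it they did, at 12.97 ± 0.066 against 13.12 ± 0.095 on the log2 scale (SD, n = 4 each). The difference of log2 0.14 (SE 0.062) had a limma adjusted p of 0.232 and an unadjusted 95% interval from 8.85e-05 to 0.28. It stayed between log2 0.10 and 0.18 in all 21 alternatives and passed in 0 of them.

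Tyrobp, the DAP12 gene on which the activating receptors depend, also gave a strong signal. It read 7286, 8024, 6946 and 6479.7 with scrambled and 8746, 7696, 6829 and 7761 with Ypel5 siRNA. The ranges overlapped on both scales. The normalized difference was log2 -0.04 (SE 0.062, 95% interval -0.18 to 0.10, limma adjusted p = 0.785). The interval leaves out a change of the size of Trem3.

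Hcst, the DAP10 gene, lies beside Tyrobp on chromosome 7. It read 491, 545, 512 and 539 with scrambled and 747, 542, 597 and 628 with Ypel5 siRNA. The high reading of Ypel5 siRNA replicate 1 fell back after normalization, to log2 8.82, next to 8.84 for replicate 3. The difference was log2 0.06 (SE 0.090, 95% interval -0.15 to 0.27, limma adjusted p = 0.758).

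Sirpa, the inhibitory CD47 receptor and counterpart of Sirpb1a, has 2 probes, both detected on all arrays. The brighter, ILMN_2722996, read 7281, 7139, 6632 and 7404 with scrambled and 8066, 7246, 7413 and 7561 with Ypel5 siRNA. The dimmer, ILMN_2744683, read 598, 584, 539 and 566 against 824, 649, 611 and 654. Normalized, both overlapped between the groups, at log2 -0.05 (SE 0.063, 95% interval -0.19 to 0.09, limma adjusted p = 0.709) for the brighter and log2 0.04 (SE 0.071, adjusted p = 0.791 in a fit over kept probes) for the dimmer.

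Pilra, the inhibitory PILR, and Pilrb1, its activating counterpart, were each read by 1 probe and detected on 0 of 8 arrays. Pilra readings were 158 to 176 with scrambled and 167 to 218 with Ypel5 siRNA, and Pilrb1 readings were 149 to 166 and 170 to 197. These values lie at or below the array medians, and no fold is given. An undetected probe does not show that a transcript is absent. Syk and Fcer1g, both known as macrophage genes, were likewise detected on 0 arrays, and whether these cells express them was not tested.

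The genes differed in how reproducible they were within a group. The residual SD was 0.081 for Tyrobp, 0.082 for Trem2 and 0.084 for Sirpa on the log2 scale, against a median of 0.112 over all genes. It was larger for Trem3 (0.191), Sirpb1a (0.232) and Trem1 (0.319), and 92.4% of genes had a smaller residual SD than Trem1. The genes that rose were thus not the most precisely measured, and the most precise ones (Tyrobp, Trem2 and Sirpa) did not pass.

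**Figure D3:**
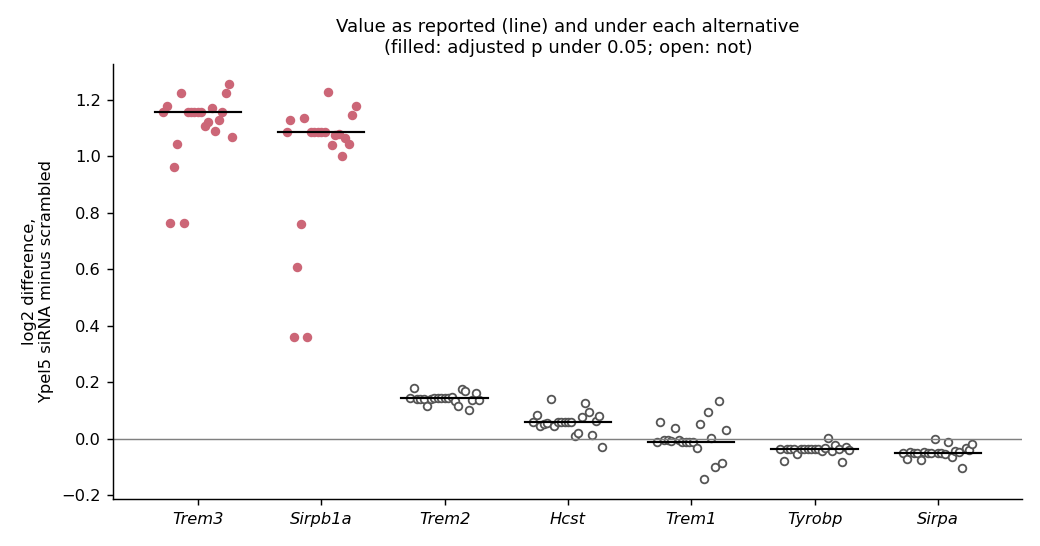
Log2 difference of the 7 genes that passed the detection filter, as reported (line) and under each processing alternative (points, filled where the adjusted p was under 0.05). Trem3 and Sirpb1a are filled throughout. The 4 lowest Sirpb1a points (log2 0.36 to 0.76) come from no background correction, the authors' values, another background correction and an offset of 50.

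Trem1, Trem3 and Trem2 belong to 1 gene cluster on chromosome 17, whose order in RefSeq is Trem1, Trem3, Treml4, Treml2, Trem2 and Treml1, leaving out genes with clone names. Treml4, a TREM-like receptor of mouse macrophages and dendritic cells that also couples to DAP12, follows Trem3 directly and was higher as well. Its probe ILMN_2438678 read 202, 211, 203 and 193 with scrambled and 282, 288, 286 and 266 with Ypel5 siRNA. The groups did not overlap, and 3 of the 4 scrambled arrays detected it. The difference was 1.97-fold (log2 0.98, SE 0.22, limma adjusted p = 0.0412), and without background correction it was 1.24-fold (log2 0.31, adjusted p = 0.0153).

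A second Treml4 probe, ILMN_3121765, was below background on all 4 scrambled arrays and detected on all 4 Ypel5 siRNA arrays. With background correction it was at least 1.66-fold higher (adjusted p = 0.0279 in a fit over all probes). This bound divides the Ypel5 siRNA mean by a floor for the scrambled arrays. On each array the floor is the dimmest normalized signal with a detection p under 0.05 or, if brighter, the probe's own value. Without background correction the probe's difference was log2 0.25, or 1.185-fold, so the bound holds only on the background-corrected scale. Both Treml4 probes pointed the same way, although in the fit over all probes the first had an adjusted p of 0.0991. The call of the gene was kept in 1 of 8 single-array omissions, that of Ypel5 siRNA replicate 4. Over the omissions the adjusted p reached 0.101 and the difference stayed between log2 0.84 and 1.11, and without both replicate 1 arrays the adjusted p was 0.121.

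The remaining named genes of the cluster did not pass. Relatives with clone names that have probes on the array were detected on 0 or 1 of 8 arrays and did not enter the fit. Treml2 was at log2 -0.42 (SE 0.39, adjusted p = 0.588) and was detected on 5 of 8 arrays, and Treml1, known from platelets, was at log2 0.04 (SE 0.19, adjusted p = 0.944). Among the named genes of the cluster, the neighbours Trem3 and Treml4 were therefore those past the threshold, between Trem1 on one side and Treml2 on the other. Whether the Trem3 and Treml4 differences differ from that of Trem1 was not tested.

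**Figure D4:**
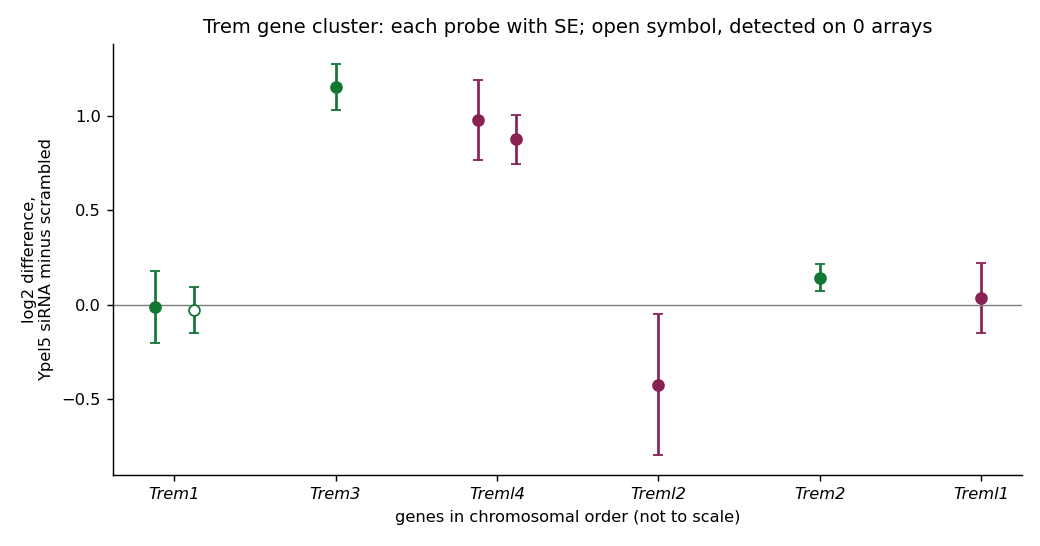
Log2 difference with SE of each probe for the named genes of the Trem cluster in chromosomal order (not to scale), Trem genes in green and Treml genes in purple. With background correction Trem3 and both Treml4 probes lie near log2 1, and the other probes lie near or below 0.2.

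Taking up to 3 named protein-coding neighbours on each side of all 9 genes gave 32 genes outside the set, of which 26 were on the array and 18 were tested. Treml4 was the 1 that rose, where 2.96% of all genes tested were called higher and 2.00% lower. Nfkbid, the gene next to Hcst and encoding an inhibitor of NF-kB, was the 1 that fell, by 0.26 on the log2 scale (SE 0.048, adjusted p = 0.0245), a call that held without Ypel5 siRNA replicate 2 and without scrambled replicates 3 or 4 and was lost without any of the other 5 arrays (adjusted p 0.0518 to 0.0649), with arrays scaled to one median (adjusted p = 0.232) and without both replicate 1 arrays (adjusted p = 0.118). The median over the 18 was log2 -0.02, with Car2 and Ythdf3 beside the Sirpb1a cluster at log2 -0.05 and 0.15.

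A further list joined receptors known to couple to DAP12 or related ITAM adaptors with close relatives of the set such as Treml1 and Treml2, whatever their coupling. Of its 9 tested genes 2 rose and 0 fell, against 2.96% called higher and 2.00% called lower over all genes, with a median of log2 0.07 against log2 0.0008 over all genes. Besides Treml4 this was Clec4n, which encodes the fungal receptor Dectin-2. Its log2 level went from 8.34 ± 0.063 to 9.13 ± 0.15, a rise of log2 0.79 (SD, 4 arrays per group, SE 0.080, adjusted p = 0.00291), and passed in 21 of 21 alternatives. Cd300lb was at log2 -0.17 (adjusted p = 0.119) and Clec4e, the receptor Mincle, at log2 0.07 (adjusted p = 0.549).

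Of 4 tested genes listed as inhibitory receptors 1 rose and 0 fell, beside the same shares over all genes (2.96% higher, 2.00% lower). The 1 was Cd33, a sialic acid-binding lectin (log2 0.45, SE 0.097, adjusted p = 0.0373). Whether mouse Cd33 carries an ITIM was not checked, so its place on this list is not a statement of how it signals. Without background correction Cd33 was at log2 0.20 (adjusted p = 0.0295). Its call held without Ypel5 siRNA replicate 3 or scrambled replicate 4 and was lost without any of the other 6 arrays (adjusted p 0.0677 to 0.0916), with arrays scaled to one median (adjusted p = 0.0614) and without both replicate 1 arrays (adjusted p = 0.134). Cd300a was at log2 0.38 (adjusted p = 0.0646), Ceacam1 at log2 0.24 (adjusted p = 0.179) and Lilrb4a at log2 0.13 (adjusted p = 0.458), so that all 4 values were above 0, with a median of log2 0.31.

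Downstream of the adaptors, 2 of 22 tested kinases, exchange factors, scaffolds and lipid enzymes rose and 0 fell (2.96% and 2.00% of all genes), with a median of log2 0.05. Vav3, an exchange factor that acts behind DAP12 in osteoclasts, rose by log2 0.44 (SE 0.069, adjusted p = 0.0133). Fgr, a Src family kinase that phosphorylates ITAMs and ITIMs, rose by log2 0.32 (SE 0.058, adjusted p = 0.0220). Fgr no longer passed without Ypel5 siRNA replicate 2 (adjusted p = 0.0585) or scrambled replicates 2 (0.0625) or 3 (0.0600). Without both replicate 1 arrays neither gene passed, at an adjusted p of 0.0762 for Vav3 and 0.0764 for Fgr. The adaptor gene Fyb (log2 0.22, adjusted p = 0.0724) and the phospholipase gene Plcg2 (log2 0.19, adjusted p = 0.0892) were next.

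On the inhibitory side 0 of 8 phosphatases and Dok adaptors passed (4.95% of all genes tested did), with a median of log2 0.03. Ptpn6 and Ptpn11, which encode the SHP-1 and SHP-2 that Sirpa and Pilra recruit, were at log2 0.04 and 0.01. The smallest p in that list was that of Ptprc (log2 -0.29, adjusted p = 0.222), followed by Dok3 (log2 0.13), Dok2 (log2 -0.09) and Inppl1 (log2 0.06).

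Ligands and sheddases of the receptors did not pass either. Of 5 tested ligand genes 0 passed, where 4.95% of all genes tested did. The ligand gene with the smallest p was Cd47, the ligand of Sirpa, at log2 0.28 (SE 0.069, adjusted p = 0.0603). Its groups did not overlap, and it was past the threshold in 6 of 21 alternatives, among them that without background correction (log2 0.23, adjusted p = 0.0220). Calr was at log2 -0.18 (adjusted p = 0.134), and Pianp, which encodes a ligand of Pilra, at log2 -0.23 (adjusted p = 0.529). The median of the 5 was log2 -0.18, and the lowest value was log2 -0.38 (adjusted p = 0.208). Among 7 tested genes of the proteases that cut Trem2 and other receptors, Adam17 was at log2 0.19 (adjusted p = 0.0821), Aph1b at log2 0.30 (adjusted p = 0.274), Psenen at log2 -0.10 and Psen2 at log2 0.08.

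**Figure D5:**
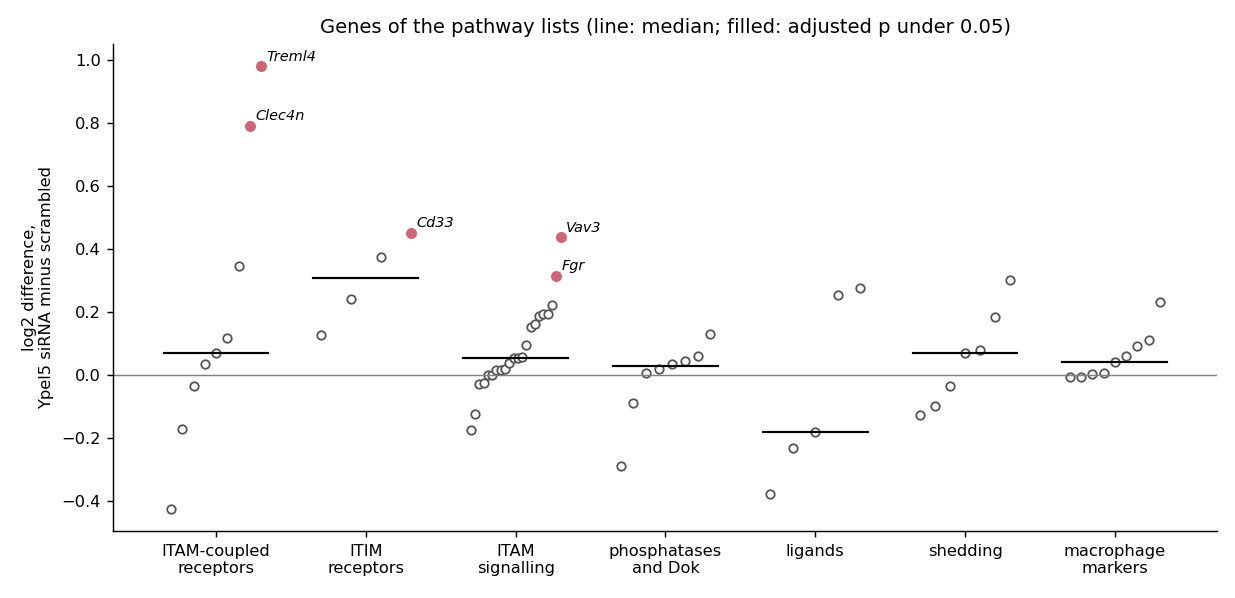
Log2 difference of each tested gene in the lists of related receptors, signalling proteins, ligands, proteases and macrophage markers, with the list's median (line) and genes past an adjusted p of 0.05 filled and named. The 5 filled genes are Treml4, Clec4n, Cd33, Vav3 and Fgr, all above 0.

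Genes with profiles most like those of Trem3 and Sirpb1a were found by the root-mean-square distance between profiles over the 8 arrays, each centred on its own mean. Slamf9, a SLAM family receptor gene, was nearest to both, at 0.158 log2 units from Trem3 and 0.172 from Sirpb1a, followed by the Fc receptor gene Fcgr3 at 0.210 and 0.180. The next for Trem3 were the transcript given as ENSMUSG00000053338 (0.213), Cbr3, a carbonyl reductase gene (0.219), and Gsta3, a glutathione transferase gene (0.226). For Sirpb1a they were Olfr1443 (0.213), the xanthine dehydrogenase gene Xdh (0.216) and the syndecan gene Sdc3 (0.219). The distance between Trem3 and Sirpb1a was 0.260, against a median over all genes of 0.614 from Trem3 and 0.593 from Sirpb1a. With 8 arrays in 2 groups this likeness mainly reflects a similar group difference.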

How the data were processed

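RNA from 8 samples of RAW264.7 cells was labelled as cRNA and read on Illumina bead arrays, per the labels. The deposited table that precedes normalization holds, per the file headers, each probe's intensity (linear, in arbitrary units) and its detection p-value on every array. The series' value table holds log2 values the authors had normalized. The submitters' processing notes name RMA without a version, and a genome build is not given in the sources used here.

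Starting from the intensities, neqc (limma 3.58.1, R 4.3.3) inferred negative controls from the detection p-values, removed background, added an offset of 16, took quantiles to a common distribution and returned log2. A probe was kept if its detection p was under 0.05 on at least 4 of 8 arrays. Each gene was represented by its brightest kept probe, which left 8154 genes. Names were updated through RefSeq, for 3875 probes by synonym, and 1088 kept the name in the file. Linear models with moderated errors (lmFit, eBayes) contrasted the groups without a replicate block, with two-sided p-values adjusted by Benjamini-Hochberg over all genes. Precision is limited by having 4 arrays per group.

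The members and gene lists were chosen with earlier results of these data known. The rule names every member and probe, up to 4 genes with the smallest p of each list (3 of them for the ligands, where the lowest value is given without its name), up to 3 named neighbours on each side of a member, and the 5 genes nearest in profile to each called member. Ptpn6, Ptpn11, Syk, Fcer1g and Mertk are named outside it, after their values were seen. Alternatives covered background correction, offset, scaling, filters, probe choice, the authors' values, blocks and omitted arrays.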

Additional observations from a re-analysis of the deposited data

How the results depend on the processing

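Trem3 and Sirpb1a, and no other of the 7 tested genes, were past the threshold in every alternative run, so the count of called members stayed at 2. The number of called genes over the whole table moved far more. It was 404 as reported, 107 with the replicate numbers of the descriptions as a block, 140 with the numbers of the source names as a block, 671 without background correction, 670 with the authors' deposited log2 values, 235 with a common median per array (87.2% of them higher, against 59.7% as reported), 144 without a detection filter, 773 with a variance trend and robust fit, and 68 without both arrays of replicate 1. Leaving out 1 array gave 187 to 269. The cause was not tested. The settings that leave out arrays had fewer arrays, and the one without a filter had more genes.

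Over all kept genes the replicate numbers gave little sign of pairing, which does not show that the arrays are unpaired. With these numbers as a block the SE fell for Trem1 (0.194 to 0.085), Sirpb1a (0.144 to 0.111), Trem2 (0.062 to 0.048) and Tyrobp (0.062 to 0.058). It rose for Trem3 (0.120 to 0.136), Hcst (0.090 to 0.093) and, slightly, Sirpa (0.0633 to 0.0635). Deviations from the group means correlated at 0.040, -0.0031, 2.22e-05 and 0.18 for replicates 1 to 4, and with the block Trem3, Sirpb1a, Treml4 and Clec4n had an adjusted p of 0.0339 and Cd33 of 0.0436, while Vav3 (0.0683), Fgr (0.0961) and Nfkbid (0.0753) did not pass.

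Changes of sign were limited to genes near 0. Trem1 turned to log2 0.059 with the source name block, 0.039 with a common median, 0.028 without both replicate 1 arrays, and, leaving out 1 array, to 0.05 (Ypel5 siRNA replicate 1), 0.09 (Ypel5 siRNA replicate 2), 0.0033 (scrambled replicate 3) and 0.13 (scrambled replicate 4), with a range of -0.14 to 0.13. Tyrobp turned to 0.0032 without scrambled replicate 2 (range -0.085 to 0.0032 leaving out 1 array), and Hcst to -0.031 without both replicate 1 arrays (range 0.0095 to 0.125 leaving out 1 array). Trem1 had no value when detection on all 8 arrays was required. Signal over background limited Trem1, Sirpb1a, Pilra and Pilrb1 most.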
